A study of Mus musculus with 2 samples.

Results

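Pmel, Mlana, Dct, Tyrp1, Tyr, Sox10, Slc45a2 and Oca2 are 8 genes of the melanocyte lineage, among 55357 features counted in single-cell RNA sequencing of lungs that carried metastases of the mouse melanoma line B16F10. They were taken as a fixed list and followed in 2 places: in melanoma cells, defined as barcodes with at least 20 UMIs (unique molecular identifiers, each marking 1 captured RNA molecule) of Pmel, Mlana, Dct and Tyrp1 together, and in the other barcodes, which are nearly all immune cells. The C435A library came from C57 mice bearing B16F10 cells with IRF7 C435A, a change of cysteine to alanine in this interferon transcription factor. The WT library came from C57 mice bearing B16F10 cells with wild-type IRF7. In both, live CD45-positive cells were sorted before capture, so melanoma cells are the few that passed a sort for a white blood cell protein, although the label for cell type reads melanoma cell. The host mice carry no named allele in the labels, and the age, the number of animals per library and whether each tumour line was 1 clone or a pool were not stated in the sources used here. The rule kept 55 of 9427 barcodes in the C435A library and 98 of 9199 in the WT library. Each genotype has 1 library, so the differences below have no replicate check and no test. Intervals in brackets are 95% intervals that cover counting error only, and they do not include the spread between cells or between mice.

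Melanocytes make melanin inside melanosomes, organelles related to lysosomes. Tyr, Tyrp1 and Dct are the enzymes of the pathway, Pmel builds the fibrils on which pigment is laid down, Mlana is a membrane protein of early melanosomes, and Slc45a2 and Oca2 are membrane proteins that set the conditions in the organelle. SOX10 is a transcription factor of the neural crest that, with MITF, switches on these genes. Several of the proteins are also known as antigens that T cells can recognise on melanoma, and B16 tumours are a standard model for such responses. Immune cells are not known to transcribe the pigment genes.

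RefSeq promoter sequences were at hand for 4 of the 8 genes, Dct, Tyrp1, Tyr and Oca2. Their 250 bases upstream of the RefSeq start (GRCm38.p6) are shown because MITF and SOX proteins are known to act on promoters of pigment genes. Capitals mark matches, on either strand, to CATGTG (the core of the M-box bound by MITF), CACGTG (an E-box), ACAAAG or ACAATG (cores like those bound by SOX proteins), and each sequence runs 5′ to 3′ on the strand of its gene.
Dct (chr14:118052247-118052496, minus strand): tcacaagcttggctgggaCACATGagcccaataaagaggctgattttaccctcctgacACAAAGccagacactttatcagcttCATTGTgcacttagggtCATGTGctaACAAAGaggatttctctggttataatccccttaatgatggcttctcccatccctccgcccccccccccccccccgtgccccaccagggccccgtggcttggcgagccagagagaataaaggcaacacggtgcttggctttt
Tyrp1 (chr4:80833963-80834212, plus strand): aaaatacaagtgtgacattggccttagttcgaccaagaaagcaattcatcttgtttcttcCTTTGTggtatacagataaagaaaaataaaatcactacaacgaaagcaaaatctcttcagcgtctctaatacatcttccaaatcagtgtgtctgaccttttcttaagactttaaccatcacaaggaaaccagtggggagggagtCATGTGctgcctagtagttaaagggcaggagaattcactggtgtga
Tyr (chr7:87493513-87493762, minus strand): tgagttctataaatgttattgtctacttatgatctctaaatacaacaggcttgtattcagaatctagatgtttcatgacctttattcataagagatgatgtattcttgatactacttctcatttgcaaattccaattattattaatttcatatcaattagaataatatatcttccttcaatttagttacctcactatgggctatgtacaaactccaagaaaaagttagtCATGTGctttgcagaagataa
Oca2 (chr7:56239509-56239758, plus strand): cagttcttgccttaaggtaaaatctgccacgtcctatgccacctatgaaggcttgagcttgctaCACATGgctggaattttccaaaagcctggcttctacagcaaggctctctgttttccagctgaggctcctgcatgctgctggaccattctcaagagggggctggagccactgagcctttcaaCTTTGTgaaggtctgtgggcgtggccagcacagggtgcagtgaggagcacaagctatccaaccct
CATGTG was found in all 4 windows, against 12.3% of 32851 RefSeq promoters cut to the same 250 bases. In Dct it lay at 150 to 145 bases upstream and, on the other strand, at 232 to 227 bases. Tyrp1 had it at 46 to 41 bases and Tyr at 21 to 16 bases upstream. In Oca2 it lay on the other strand at 186 to 181 bases. ACAAAG was found in Dct, Tyrp1 and Oca2 and in 16.5% of all promoters. ACAATG was found in Dct and in 10.7% of all promoters, and CACGTG, present in 6.02% of them, was in none of the 4. A match is a description of letters and was not tested as a binding site.

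Melanoma cells were a smaller share of the C435A library. They made up 0.583% [0.440, 0.759] of its kept barcodes, against 1.07% [0.866, 1.30] for WT, and the difference was -0.482 percentage points [-0.750, -0.223]. Since the sort was for CD45, this is the share that passed the sort and not the share of tumour in the lung. The 4 genes of the rule summed to between 25 and 2143 UMIs per melanoma cell in the C435A library, with a median of 511, and to between 20 and 2303 in the WT library, with a median of 857. The highest barcodes just outside the rule had 19 UMIs in each library. Near the limit lay 6 and 16 cells with 20 to 49 UMIs, and 7 and 27 barcodes with 10 to 19, in the C435A and WT libraries. Most melanoma cells lay far above it, with 150 UMIs or more in 45 of 55 and 76 of 98 cells.

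**Figure D1:**
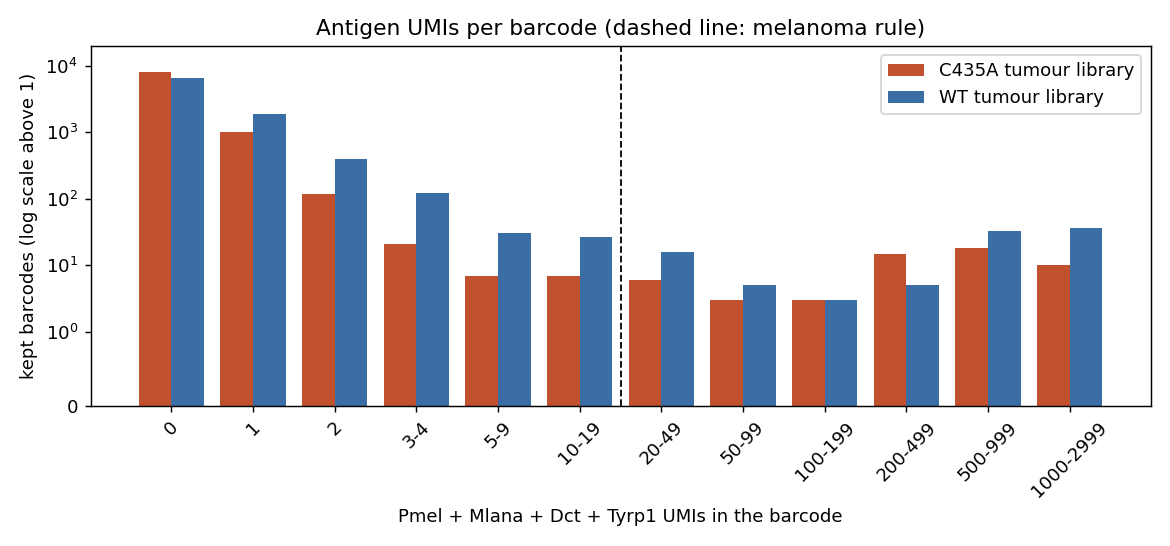
Kept barcodes by their summed UMIs of Pmel, Mlana, Dct and Tyrp1 (x axis, bins) on a log scale (y axis), for the C435A (left bars) and WT (right bars) libraries. Most barcodes hold 0 or 1 UMI, few lie beside the dashed limit of 20, and a second group of 45 and 76 cells holds 150 or more.

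These cells had a median depth of 34304 UMIs and 6767 genes in the C435A library and of 47901.5 UMIs and 7157.5 genes in the WT library, against medians of 3184.5 and 2667 UMIs in the other kept barcodes. The depth makes counts of even the rarest of the 8 genes readable in melanoma cells, and it is why levels below are given per 10000 UMIs of the cell or, for a gene summed over all melanoma cells, in CPM, the UMIs of the gene per 1000000 UMIs of those cells. When cells were clustered without the 8 genes, 55 of 55 and 95 of 98 fell into 1 cluster. Some of the 8 genes were among its 10 leading genes, and the others were Syt4, Ptgds, Serpinh1, Scgb1a1 and Cryab. Its profile was nearest to the melanoma markers, 10 of which were detected. The 8 antigens are not in that marker set. The cluster was left unnamed because its 10 leading genes held none of the markers and held Scgb1a1, of airway club cells. It took in 22 and 44 other barcodes as well. The other 3 cells, all of the WT library, fell among alveolar macrophage-like and macrophage-like cells. Mitf, the master regulator of the lineage, was at 522 and 528 CPM in the C435A and WT melanoma cells. Of 24 cell barcodes that the libraries shared, none was a melanoma cell in either.

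White blood cell genes were low but present in melanoma cells. The 20 immune genes of a fixed list summed to a median of 3.49 UMIs per 10000 (range 0 to 79.6) in C435A melanoma cells and 4.12 (range 0 to 692) in WT melanoma cells, against medians of 181 and 187 in the other kept barcodes. All 20 of these genes had UMIs in both sets of melanoma cells. Ptprc, which encodes CD45, had 83 UMIs in 32 of 55 C435A cells and 123 UMIs in 41 of 98 WT cells. At 39.2 and 26.2 CPM, it was far below the 1031 and 841 of the other barcodes. Lyz2, a lysozyme of myeloid cells, was at 107 and 891 CPM (log2 ratio -3.06 [-3.26, -2.87]), and Cd74, an antigen presentation chaperone, at 163 and 87.5 (0.90 [0.69, 1.11]). C1qa (-2.897 [-4.81, -1.47]) and C1qb (-1.99 [-3.68, -0.66]), subunits of complement C1q, were lower in C435A melanoma cells. Nkg7, a granule gene of killer cells, was higher in them (2.88 [2.12, 3.70]). The value of 692 was that of a WT cell with under 150 UMIs of the rule's genes. Among the 76 WT cells with 150 or more, the highest was 83.6. A few WT melanoma cells had clustered with macrophage-like cells. How far the ratios of Lyz2, C1qa and C1qb rest on such cells was not tested. In the other barcodes, every gene of the list except Cd74, Ms4a1 and Cd79a had the same direction as in melanoma cells, some on few UMIs. Lyz2 was lower there (4829 and 10732 CPM) and Nkg7 higher (979 and 316) in the C435A library. The direction was the opposite there for Cd74 (3268 and 4631 CPM) and for the B cell genes Ms4a1 (187 and 209, against 5.20 and 2.99 in melanoma cells) and Cd79a (428 and 554, against 20.8 and 19.8 in melanoma cells). In melanoma cells the log2 ratios of Ms4a1 (0.80 [-0.48, 2.04]) and Cd79a (0.07 [-0.48, 0.60]) had intervals that held 0. The part that immune RNA in these droplets plays in the values below was not tested.

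None of the 8 antigens differed by 1.5-fold between C435A and WT melanoma cells. Among the 9348 genes with at least 50 UMIs in melanoma cells, 4.27% were at least 1.5-fold higher and 4.69% at least 1.5-fold lower in the C435A library, so 0 of 8 in either direction is near this background and says little by itself. The summed 8 stood at 17208 CPM in C435A melanoma cells and 18122 in WT melanoma cells, a log2 ratio of -0.07 [-0.09, -0.06]. The median log2 ratio was -0.11 over the 8 and -0.02 over all 9348 genes. Although 7 members were below 0, the intervals of Dct, Slc45a2 and Oca2 included 0. Of the 11041 genes with at least 20 UMIs in melanoma cells, 5738 were below 0. Because 4 of the 8 genes chose the cells, their levels are descriptions. Tyr, Sox10, Slc45a2 and Oca2, which did not, summed to 1185 and 1341 CPM (-0.18 [-0.25, -0.11]).

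Dct had the highest summed level in both libraries, followed by Tyrp1, Pmel and Mlana, then by Tyr and Slc45a2, and last by Sox10 and Oca2. Counts of 3′ ends give 1 UMI per RNA molecule, so these levels are not divided by gene length. Tyr and Slc45a2 were near each other: in the C435A library Slc45a2 was the higher (535 [504, 567] and 469 [440, 499] CPM), and in the WT library Tyr was (580 [558, 602] for Tyr and 544 [523, 565] for Slc45a2).

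Of the melanin enzymes, Dct (dopachrome tautomerase, ENSMUSG00000022129, chromosome 14, 118012790 to 118052244, minus strand, GRCm38) had 15944 UMIs in C435A melanoma cells and 35654 in WT melanoma cells. Per 10000 UMIs of the cell its lowest, median and highest values were 3.13, 78.1 and 249 in C435A cells and 5.31, 74.96 and 170 in WT cells. The cells of both libraries overlapped widely, and every melanoma cell had Dct UMIs. Its summed level was 7534 and 7606 CPM, a log2 ratio of -0.014 [-0.041, 0.013].

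Tyrp1 (tyrosinase-related protein 1, an oxidase late in the mouse pathway, ENSMUSG00000005994, chromosome 4, 80834123 to 80851719, plus strand) had 8001 and 21057 UMIs in C435A and WT melanoma cells. Per cell it ran from 1.56 through a median of 34.1 to 181 per 10000 UMIs in C435A cells, and from 0 through 42.6 to 118 in WT cells. Its summed level was 3781 and 4492 CPM (-0.25 [-0.29, -0.21]), so it was 1.19-fold higher in WT melanoma cells while single cells overlapped almost fully. Tyr (tyrosinase, the enzyme of the first and limiting step, ENSMUSG00000004651, chromosome 7, 87424771 to 87493512, minus strand) had 992 and 2717 UMIs. Its lowest, median and highest values were 0, 4.37 and 25.6 per 10000 in C435A cells and 0, 5.16 and 28.9 in WT cells. The summed level was 469 and 580 CPM (-0.31 [-0.41, -0.20]). Tyrp1 and Tyr were thus lower in C435A melanoma cells by less than 1.5-fold, and for Dct no difference was detectable in the summed level.

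Pmel (the fibril protein, also called gp100, ENSMUSG00000025359, chromosome 10, 128704195 to 128720238, plus strand) had 6755 and 15958 UMIs in C435A and WT melanoma cells. Its lowest, median and highest values were 0.583, 31.6 and 264 per 10000 in C435A cells and 2.03, 30.9 and 112 in WT cells. The value of 264 was that of a single C435A cell of 12925 UMIs, and the next highest of both libraries was 112, in a WT cell. The summed level was 3192 and 3404 CPM (-0.09 [-0.13, -0.05]). Mlana (also called MART-1, ENSMUSG00000024806, chromosome 19, 29697824 to 29708634, plus strand) was the one member on the other side. It had 3210 and 5989 UMIs, and per cell ran from 0 through 13.3 to 62.7 per 10000 in C435A cells and from 0 through 10.4 to 37.0 in WT cells. Its summed level was 1517 and 1278 CPM (0.25 [0.19, 0.31]).

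Slc45a2 (a melanosomal transporter, ENSMUSG00000022243, chromosome 15, 11000721 to 11029233, plus strand) had 1132 and 2549 UMIs in C435A and WT melanoma cells. Its lowest, median and highest values were 0, 5.16 and 14.4 per 10000 in C435A cells and 0, 4.65 and 38.6 in WT cells, and its log2 ratio of -0.024 [-0.126, 0.078] held 0. Oca2 (a melanosomal membrane protein linked to chloride flow and pH, ENSMUSG00000030450, chromosome 7, 56239760 to 56536518, plus strand) was the rarest member, with 120 and 290 UMIs. It was at 56.7 and 61.9 CPM (-0.13 [-0.44, 0.19]), and its median cell had 0.276 and 0.364 per 10000. For these 2 genes no difference was detectable at this depth. Sox10 (ENSMUSG00000033006, chromosome 15, 79154908 to 79165240, minus strand) had 264 and 732 UMIs, or 125 and 156 CPM (-0.32 [-0.53, -0.12]). Its lowest, median and highest values were 0, 1.10 and 8.61 per 10000 in C435A cells and 0, 1.36 and 4.91 in WT cells.

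**Figure D2:**
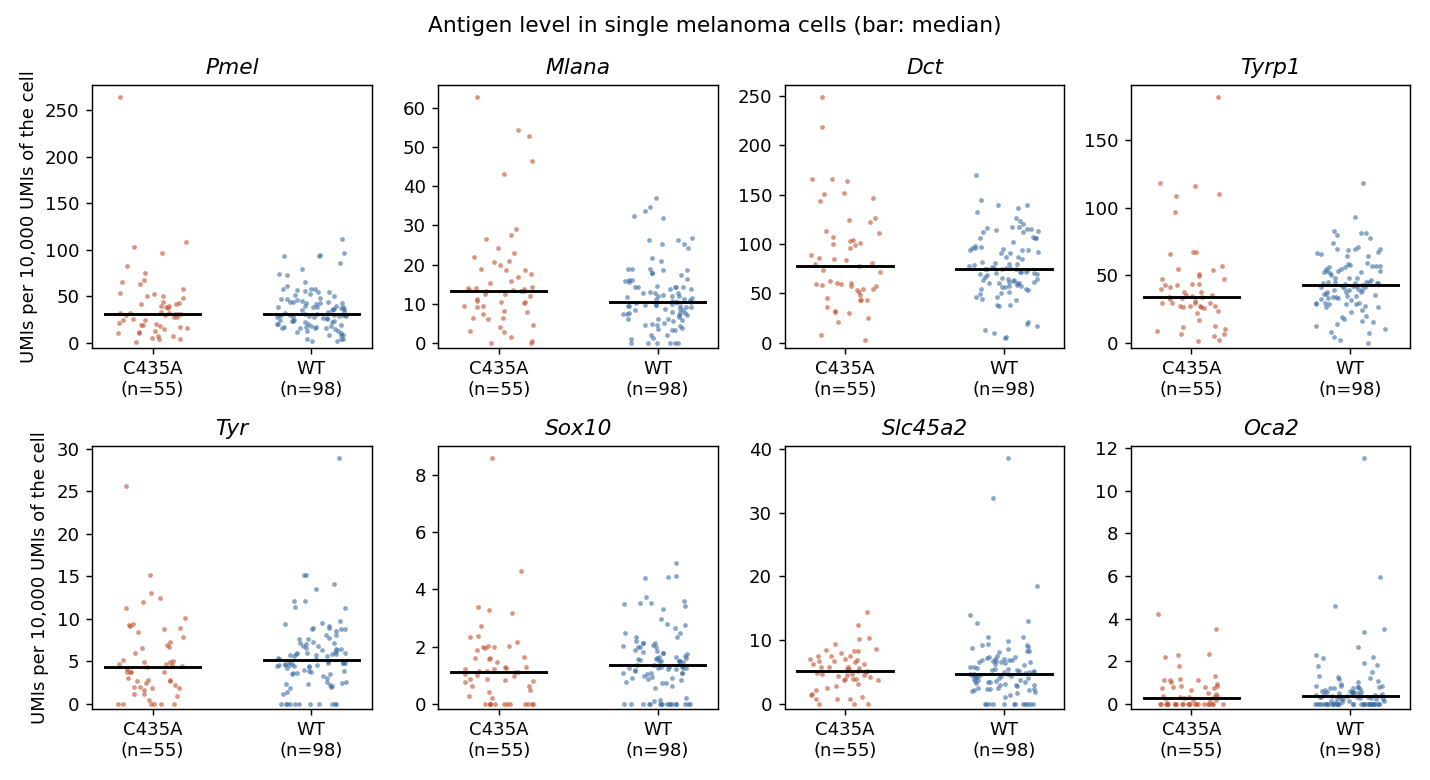
Level of each antigen in single melanoma cells, as UMIs per 10000 UMIs of the cell (y axis), for 55 C435A cells (left) and 98 WT cells (right), with the median as a bar. The clouds overlap for all 8 genes, with medians such as 78.1 and 74.96 for Dct and 13.3 and 10.4 for Mlana.

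These ratios rest partly on a few cells. The 5 deepest cells held 20.7% of all UMIs of C435A melanoma cells and 13.1% of those of WT melanoma cells. Without these 5 cells of each library the summed 8 had a log2 ratio of 0.0034, and with every cell weighted alike it was 0.10. Cells with at least 2 Ptprc UMIs were 21 of 55 and 19 of 98 melanoma cells. They were deep, with medians of 49308 and 61024 UMIs, and their summed antigens were at 14399 and 16247 CPM, against 20376 and 18738 in the remaining C435A and WT cells. Without them the ratio of the summed 8 was 0.12 and that of the 4 genes outside the rule 0.027. The direction of the summed ratios was therefore not stable. Mlana stayed above 0 in every alternative run, from 0.22 to 0.44. Tyrp1 ranged from -0.28 to -0.017, Tyr from -0.33 to -0.12 and Sox10 from -0.39 to -0.076. Without the cells with at least 2 Ptprc UMIs, the intervals of these 3 genes included 0, with Tyrp1 at -0.017 [-0.065, 0.030], Tyr at -0.117 [-0.256, 0.020] and Sox10 at -0.076 [-0.343, 0.184]. Sox10 without the 5 deepest cells was at -0.198 [-0.422, 0.021]. Dct was above 0 in several alternatives, up to 0.13 with every cell weighted alike.

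To compare how many cells carried each transcript, melanoma cells were thinned to 5000 UMIs, which left out 7 of 55 and 16 of 98 shallower cells. Dct was then seen in 48 of 48 C435A cells and 82 of 82 WT cells, Pmel in 48 and 81, Tyrp1 in 47 and 82, and Mlana in 47 and 77. Tyr was seen in 83.3% [69.8, 92.5] of C435A cells and 95.1% [87.98, 98.7] of WT cells, a difference of -11.8 points [-25.0, -1.18]. Unthinned, Tyr was in 89.1% and 88.8% of cells, a difference of 0.315 points [-11.6, 10.02]. Thinned to 2000 UMIs the difference was -15.6 points with an interval that includes 0, [-31.5, 1.47]. Slc45a2 was seen in 85.4% and 84.1% of thinned cells, Sox10 in 45.8% and 53.7% and Oca2 in 20.8% and 25.6%, and these differences had intervals that include 0. In the other kept barcodes, unthinned and at median depths of 3184.5 and 2667 UMIs, Tyr was seen in 0.352% and 1.13%, Slc45a2 in 0.523% and 1.16%, Sox10 in 0.181% and 0.494%, and Oca2 in 0.043% and 0.044%.

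Among the 48 C435A and 82 WT melanoma cells with at least 5000 UMIs, many pairs of pigment genes varied together. Sox10 showed little relation to the pigment genes, and in the WT library Mlana and Tyrp1 each showed little relation to several of them. Over cells, Spearman's rho between levels per 10000 UMIs was 0.63 and 0.56 for Pmel with Dct, 0.53 and 0.47 for Dct with Tyrp1, 0.60 and 0.54 for Dct with Tyr, and 0.49 and 0.42 for Pmel with Mlana, in the C435A and WT libraries. Mlana with Dct was lower, at 0.29 and 0.19. Mlana with Tyrp1 was at 0.30 and 0.17, and Mlana with Oca2 at 0.42 and -0.001. Tyrp1 with Tyr was at 0.28 and 0.28, Tyrp1 with Slc45a2 at 0.53 and 0.21, and Tyrp1 with Oca2 at 0.31 and 0.20. Dct with Oca2 was at 0.57 and 0.26. For Sox10 with Dct rho was -0.07 and 0.14, for Sox10 with Pmel -0.02 and 0.21, and for Sox10 with Mlana 0.02 and 0.21. These cells share a library and a total that each level is divided by, Sox10 counts are few, and the values describe these cells only.

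Lists of other genes of the pigment cell had medians on either side of 0. These lists were chosen with earlier results known, and use members with at least 20 UMIs. Over all 11041 such genes 786 were at least 1.5-fold higher and 774 lower in C435A melanoma cells, with a median log2 ratio of -0.015. Of 12 measured regulators of the lineage 2 were higher and 1 lower, with a median of -0.05. Mitf (-0.02 [-0.12, 0.09]) and Zeb2, a repressor active in neural crest cells (0.12 [-0.05, 0.29]), had intervals that held 0. The receptor Erbb3 (35.4 and 21.8 CPM, 0.70 [0.25, 1.15]) and the transcription factor Tfap2a (55.3 and 35.2, 0.65 [0.30, 1.00]) were higher. Of 28 genes of melanosome formation and transport, 0 were higher and 2 lower, with a median of -0.09. Gpnmb, a melanosomal relative of Pmel, was at 2500 and 2189 CPM (0.19 [0.14, 0.24]), the tetraspanin Cd63 at 2465 and 1787 (0.46 [0.41, 0.51]), and Rab32, a GTPase of cargo delivery, at 22.2 and 35.4 (-0.67 [-1.17, -0.20]).

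Of 12 channels, transporters and redox genes of the melanosome 0 were higher and 2 lower, with a median of -0.36. Of these 12, 9 were below 0, against 5738 of all 11041 genes with at least 20 UMIs. Slc24a5, an ion exchanger (901 and 920 CPM, -0.03 [-0.11, 0.05]), and Trpm1, a channel gene driven by MITF (558 and 713, -0.35 [-0.45, -0.26]), were the most abundant. The lower ones were the cystine transporter Slc7a11 (8 and 41 UMIs, -1.21 [-2.51, -0.10]) and Cited1 (169 and 334 CPM, -0.99 [-1.16, -0.82]), a transcriptional cofactor and not a channel. Of 11 measured neural crest genes 2 were higher and 1 lower, with a median of 0.16. S100b (0.39 [0.24, 0.55]) and the AP-1 gene Jun (0.39 [0.19, 0.59]) led by level, Nes, an intermediate filament of progenitors (70 and 46 UMIs, 1.75 [1.20, 2.32]), and the lipid-binding Fabp7 (51 and 75 UMIs, 0.59 [0.05, 1.12]) were the higher ones, and Tgfbi, a matrix protein (6 and 93 UMIs, -2.81 [-4.29, -1.63]), was lower.

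Outside pigmentation, 4 of 12 genes of MHC class I presentation were higher and 0 lower in C435A melanoma cells, with a median of 0.42. The background for this and the next lists is 786 higher and 774 lower of all 11041 genes. The immunoproteasome genes Psmb8 (66 and 45 UMIs, 1.70 [1.13, 2.28]) and Psmb9 (52 and 51 UMIs, 1.18 [0.59, 1.76]), the peptide transporter Tap2 (0.64 [0.0019, 1.27]) and the heavy chain H2-D1 (270 and 178 CPM, 0.60 [0.45, 0.76]) were those 4. Calr, a chaperone, was at 0.19 [0.11, 0.27] and B2m, the light chain, at 763 and 555 CPM (0.46 [0.37, 0.55]). Immune cells also express these genes, and the immune genes given above moved in these cells as well. Their part here was not tested. Of 16 cell division genes 0 were higher and 5 lower, with a median of -0.38, among them Cenpf (-0.79 [-1.07, -0.52]), Ccnb1 (-0.77 [-1.13, -0.44]), Ccnb2 (-0.65 [-0.94, -0.38]) and Plk1 (-0.61 [-1.06, -0.18]), all of mitosis. Birc5, also mitotic, was at 183 and 277 CPM (-0.60 [-0.76, -0.43]) and Rrm2, of nucleotide synthesis, at 211 and 222 (-0.07 [-0.23, 0.09]).

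Type I interferon response genes, targets of the IRF7 pathway, gave 2 higher and 3 lower of 15 measured, against 786 and 774 of all 11041 genes. Their median of 0.05 turned to -0.066 with members of at least 5 UMIs. The lower Ifit1, Ifit3 and Oas1a and the higher Zbp1 had few UMIs and intervals that held 0. The membrane genes Ifi27 (0.12 [-0.02, 0.27]) and Ifitm3 (-0.10 [-0.26, 0.05]) were the most abundant, and Rsad2, viperin, was at 53 and 75 UMIs (0.65 [0.11, 1.17]). Irf7 itself had 4 UMIs in C435A and 7 in WT melanoma cells, and counts of 3′ ends do not read the changed codon, so the genotype labels could not be checked here. Of 11 measured glycolysis and hypoxia genes 1 was higher and 0 lower, with a median of 0.0005. Pgk1 (-0.18 [-0.22, -0.13]) and Tpi1 (-0.19 [-0.24, -0.14]), both glycolytic enzymes, led by level, and Ndrg1, a hypoxia-induced gene (92 and 85 UMIs, 1.26 [0.82, 1.70]), was the higher one. Of the 19 immune genes measured, 9 were higher and 7 lower, with a median of 0.58. That median was 0.068 over the members with at least 100 UMIs.

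Outside melanoma cells the antigens differed far more. The other kept barcodes, 9372 and 9101, held 1567 antigen UMIs in the C435A library and 3932 in the WT library, or 32.5 [31.0, 34.2] and 94.0 [91.1, 97.0] CPM. The log2 ratio was -1.53 [-1.62, -1.45], a level 2.89-fold higher in the WT library. Of 14732 genes with at least 50 UMIs in these barcodes, 11.6% were at least 1.5-fold lower and 7.63% at least 1.5-fold higher in the C435A library, with a median of -0.02. Of the members, 7 were lower by that size. Oca2, with 4 UMIs in each library, was under the count minimum and too rare to compare. Pmel had 330 and 782 UMIs (-1.45 [-1.64, -1.26]) and Mlana 157 and 352 (-1.37 [-1.65, -1.09]). Dct had 608 and 1407 (-1.41 [-1.55, -1.28]), Tyrp1 366 and 1114 (-1.81 [-1.98, -1.64]) and Tyr 35 and 110 (-1.85 [-2.45, -1.29]). Sox10 had 17 and 48 (-1.70 [-2.59, -0.88]) and Slc45a2 50 and 115 (-1.40 [-1.91, -0.91]).

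**Figure D3:**
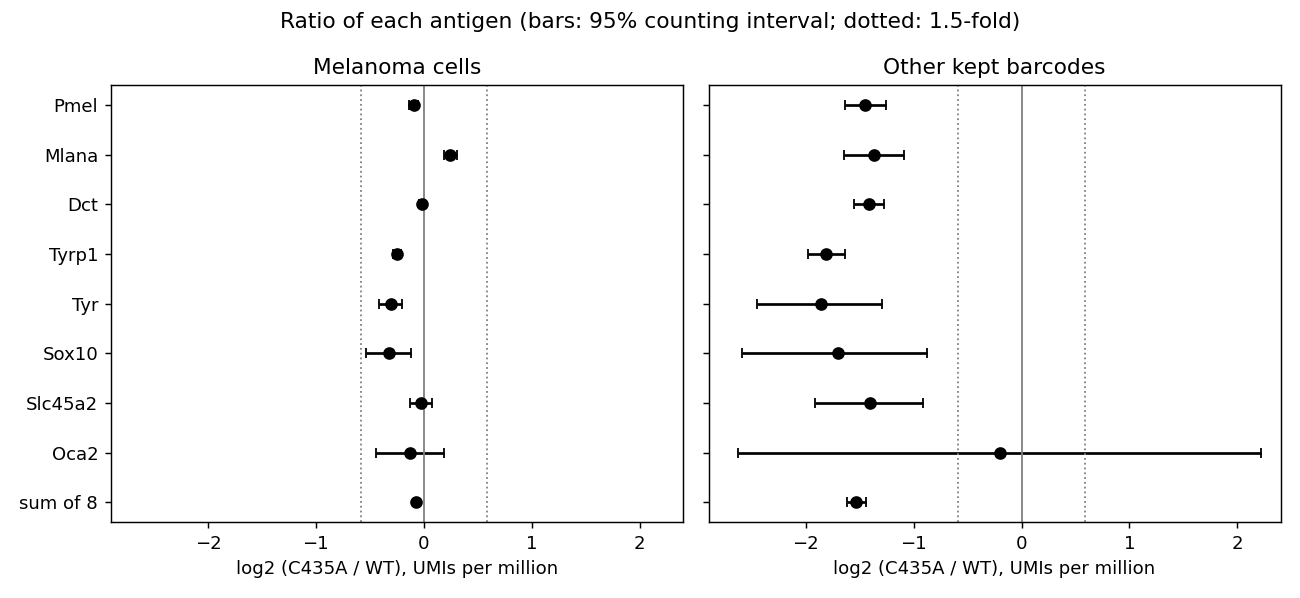
Log2 ratio of each antigen, C435A over WT library, in CPM, in melanoma cells (left) and in the other kept barcodes (right), with 95% counting intervals and dotted lines at 1.5-fold. All 8 lie within 1.5-fold in melanoma cells, and 7 lie beyond it, from -1.37 to -1.85, in the other barcodes.

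Among kept barcodes, antigen UMIs outside melanoma cells stood in nearly the same proportion to those inside them in both libraries. Melanoma cells held 36418 and 84946 antigen UMIs, 2.33 times as many in the WT library, and the other barcodes held 2.51 times as many there. For every 1000 antigen UMIs in melanoma cells, the other barcodes thus held 43.0 in the C435A library and 46.3 in the WT library. Removed barcodes are in neither total, and those that met the rule held 246 and 13531 antigen UMIs. The proportion with them counted was not tested. Melanoma cells carried 95.9% and 95.6% of all antigen UMIs of kept barcodes. Within each library the summed level in melanoma cells was 529-fold [503, 557] and 193-fold [187, 199] that of the other barcodes. Pmel, Mlana, Dct and Tyrp1 split the barcodes, so these shares and folds follow in part from the limit of 20 UMIs. For the genes outside the rule, the folds in the C435A and WT libraries were 645 and 220 for Tyr and 515 and 198 for Slc45a2. They were 353 and 136 for Sox10, and 683 and 647 for Oca2, which had few UMIs in the other barcodes.

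Every immune class had fewer antigen UMIs in the C435A library. In T cell-like cells there were 13.6 [12.5, 14.8] UMIs of the 8 genes per 100 cells in the C435A library and 31.7 [29.96, 33.6] in the WT library. B cell-like cells had 12.8 [11.4, 14.4] and 29.5 [27.5, 31.6], NK cell-like cells 12.1 [9.92, 14.6] and 31.1 [25.7, 37.3], and monocyte-like cells 12.8 [9.93, 16.2] and 33.6 [27.8, 40.3]. These 4 classes lay close together within each library. Plasmacytoid dendritic cell-like cells, with few counts, had 11.5 [4.61, 23.6] and 32.4 [20.8, 48.3]. Neutrophil-like cells were the lowest, at 6.37 [3.89, 9.84] and 26.3 [21.4, 32.0].

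The remaining 4 classes had more. Alveolar macrophage-like cells had 31.0 [27.3, 35.1] and 102 [94.3, 109] antigen UMIs per 100 cells, macrophage-like cells 34.8 [28.1, 42.6] and 81.2 [72.7, 90.5], and conventional dendritic cell-like cells 31.0 [19.4, 46.9] and 69.2 [53.2, 88.6]. Plasma cell-like cells had 23.4 [18.0, 29.8] and 76.8 [64.9, 90.4]. These 4 classes were also the deepest, with medians of 7249.5 and 10220 UMIs in alveolar macrophage-like cells, 7683.5 and 11073 in macrophage-like cells, 6964 and 8919 in conventional dendritic cell-like cells, and 14941.5 and 18808.5 in plasma cell-like cells, against 3676 and 2803 in T cell-like cells. In CPM the order turned, and plasma cell-like cells were the lowest, at 14.4 and 39.9, and NK cell-like cells the highest, at 54.4 and 135. The alveolar macrophage-like class took in a shallow cluster of 49 and 94 kept barcodes. Its median depth was 0.34 of the library median, and 0 of the class markers were among its 10 leading genes.

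After thinning to 1000 UMIs, the share of cells with any of the 8 genes was 6.98% [5.37, 8.89] and 14.01% [10.6, 18.0] in NK cell-like cells, with 42 and 12 shallower cells left out, against 10.5% and 24.2% unthinned. T cell-like cells had 3.47% [2.91, 4.11] and 10.8% [9.84, 11.9] with 102 and 62 left out, against 12.2% and 24.9% unthinned. For alveolar macrophage-like cells the thinned share was 4.21% [2.90, 5.89] and 8.43% [6.45, 10.8] with 30 and 51 left out, against 24.7% and 52.5% unthinned. Plasma cell-like cells had 3.35% [1.54, 6.26] and 4.95% [2.29, 9.18] with 5 and 8 left out, against 18.6% and 46.8% unthinned. Alveolar macrophage-like cells were the highest of these unthinned. Once depth was equal, their interval overlapped that of T cell-like cells in both libraries. Barcodes with 5 to 19 UMIs of the 4 genes of the rule numbered 14 in the C435A library and 58 in the WT library. The unnamed cluster held 8 and 21 of them, among its 22 and 44 barcodes under the rule. Alveolar macrophage-like cells held 1 of 790 and 20 of 727, macrophage-like cells 3 of 270 and 8 of 405, and conventional dendritic cell-like cells 1 of 71 and 2 of 91. T cell-like cells, which were shallower, held 0 of 3875 and 5 of 3766. These counts are not thinned. How many of those in alveolar macrophage-like cells lay in the shallow cluster of that class was not tested. How these barcodes came to hold antigen UMIs was not tested.

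**Figure D4:**
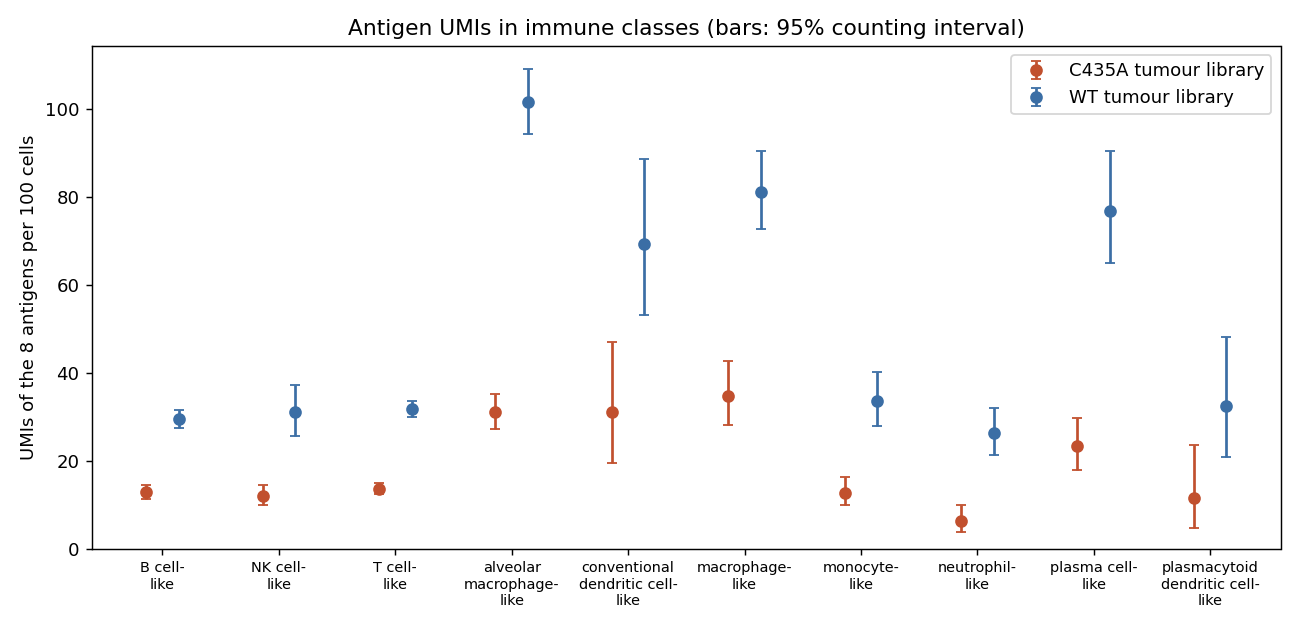
UMIs of the 8 antigens per 100 cells (y axis) in 10 immune classes, for the C435A library (left point of each pair) and the WT library (right point), with 95% counting intervals. The C435A point is below the WT point in every class, with T cell-like cells at 13.6 and 31.7 and neutrophil-like cells at 6.37 and 26.3.

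In CPM, the log2 ratio by class ran from -1.94 [-2.09, -1.79] in T cell-like cells through -1.51 [-1.71, -1.32] in B cell-like, -1.33 [-1.55, -1.12] in alveolar macrophage-like and -1.31 [-1.70, -0.92] in NK cell-like cells to -0.73 [-1.08, -0.40] in macrophage-like cells. Per cell, the ratio was -1.22 [-1.37, -1.07] in T cell-like, -1.20 [-1.40, -1.01] in B cell-like, -1.36 [-1.75, -0.98] in NK cell-like, -1.22 [-1.57, -0.89] in macrophage-like and -1.71 [-1.93, -1.50] in alveolar macrophage-like cells. The ratios in T cell-like and macrophage-like cells, far apart in CPM, were thus close per cell. No class had an interval that held 0 on either scale.

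Antigen UMIs outside melanoma cells had the same 4 leading genes, in the same order, as those inside them, with some shares that differed beyond counting error. Dct was 43.8% [43.3, 44.3] and 42.0% [41.6, 42.3] of the UMIs of the 8 genes in C435A and WT melanoma cells and 38.8% [36.4, 41.3] and 35.8% [34.3, 37.3] in the other barcodes of the C435A and WT libraries. Tyrp1 was 21.97% [21.5, 22.4] and 24.8% [24.5, 25.1] in melanoma cells and 23.4% [21.3, 25.5] and 28.3% [26.9, 29.8] in the other barcodes. Pmel was 18.5% [18.2, 18.95] and 18.8% [18.5, 19.1] in melanoma cells and 21.1% [19.1, 23.2] and 19.9% [18.7, 21.2] in the other barcodes. Mlana was 8.81% [8.53, 9.11] and 7.05% [6.88, 7.22] in melanoma cells and 10.0% [8.58, 11.6] and 8.95% [8.08, 9.89] in the other barcodes. Dct was thus a smaller share outside melanoma cells in both libraries, beyond counting error. Outside them Tyrp1 and Mlana were larger shares in the WT library, and Pmel in the C435A library, also beyond counting error. The lower Tyrp1 share of C435A melanoma cells was also seen in the other barcodes of that library, beyond counting error. The higher Mlana share was as well, but there the intervals overlapped. Over immune classes with at least 50 antigen UMIs, Dct ranged from 34.0% to 48.6% over 7 classes of the C435A library and from 29.5% to 39.7% over 9 classes of the WT library.

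**Figure D5:**
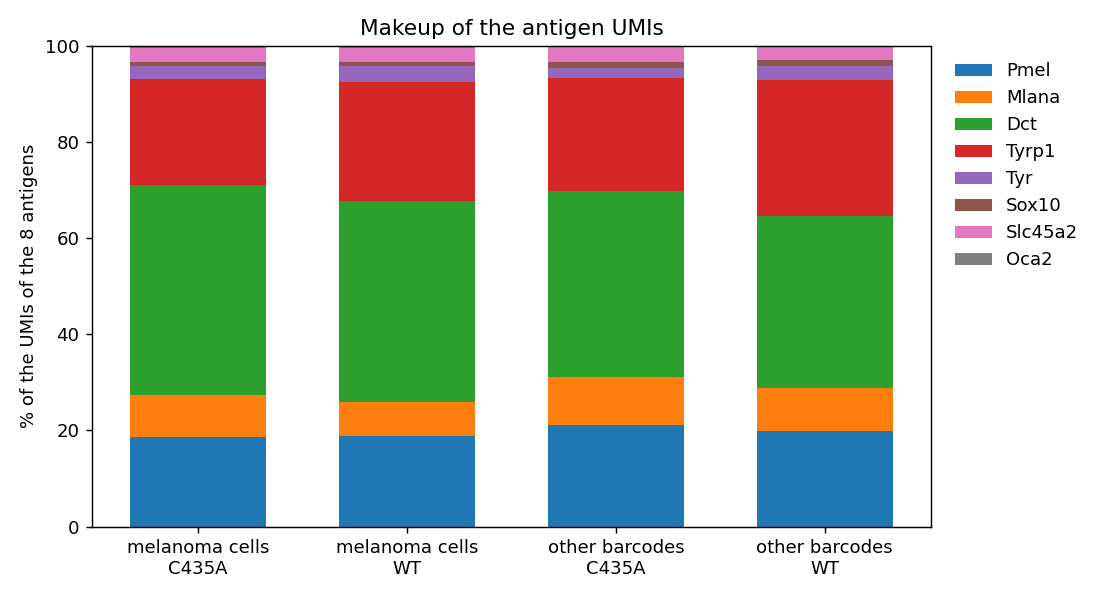
Share of each antigen in the summed UMIs of the 8 (y axis, percent) in melanoma cells and in the other kept barcodes, C435A left of WT in each pair. Dct is the largest share in all 4 bars, at 43.8% and 42.0% in melanoma cells and at 38.8% and 35.8% in the other barcodes.

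The barcodes of the unnamed cluster that fell under the rule stood apart from the immune classes. They numbered 22 and 44, had median depths of 796.5 and 944.5 UMIs and had the summed antigens at 1411 and 1661 CPM, a log2 ratio of -0.23 [-0.55, 0.07]. Without them the ratio over the other barcodes was -1.53, as with them.

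Genes outside the list whose levels followed the summed 8 most closely, over 22 profiles of melanoma cells and 10 immune classes in 2 libraries, were Ptgds (a prostaglandin D synthase, Pearson's r = 0.98), Glrb (a glycine receptor subunit, 0.98), Syt4 (a synaptotagmin, 0.98), Insc (0.98), Bace2 (a protease that processes PMEL, 0.98), Cited1 (0.97), Meis2 (a homeobox factor, 0.97), Sparcl1 (a matrix protein, 0.97), Gm3776 (0.97) and Car14 (a carbonic anhydrase, 0.97), of 10282 genes with at least 500 UMIs. Syt4 was at 2254 and 2366 CPM in C435A and WT melanoma cells and reached at most 11.8 in any immune class. Ptgds was at 2527 and 2841 and reached at most 25.3. The profiles are dominated by the gap between melanoma cells and all others, and the values of r are descriptions.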

How the data were processed

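Per the labels' protocols, lung metastases of B16F10 were digested with collagenase, red cells lysed and live CD45-positive cells sorted. Their protocols mention BD Rhapsody capture as well as 10x Chromium 3′ V3 kits. The values are counts of UMIs per gene and barcode, as the authors deposited them. They were made with Cell Ranger 7.2.0, per the file headers, on GRCm38, per the submitters' processing notes. The annotation, the intron setting and the cell calling were not stated in the sources used here. The libraries held 10373 and 10156 barcodes and 59615672 and 54934397 UMIs (C435A and WT libraries).

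Barcodes were kept with at least 200 genes, 500 UMIs and under 20% of UMIs mitochondrial, and 102 and 157 failed. The highest Scrublet scores, 0.8% per 1000 barcodes, were removed as doublets (844 and 800). Immune classes came from Leiden clustering (scanpy 1.11.5, resolution 1, 2000 variable genes without the 8 antigens, 30 components, 15 neighbours, seed 0) and were named from 16 marker sets, with the ending -like. UMIs were summed per class and library. Ratios have exact conditional intervals and shares exact Clopper-Pearson intervals. Differences of shares have Newcombe intervals. Genes past 1.5-fold were counted, and a bound against a count of 0 used 3 counts. TMM factors came from edgeR 4.0.16. Gene positions are from GENCODE M21, also GRCm38, which holds 52081 of the 55357 feature IDs. The interval calculation was run on simulated counts that held counting error only. That run cannot show how the intervals stand to spread between cells or mice.

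The members, lists and rules were chosen with earlier results of these data known. Named beside the 8 antigens were the 10 genes most like them in profile and, per list, the 2 most abundant genes over both libraries and up to 4 past 1.5-fold whose interval excluded 0. Counts of cells by antigen band or Ptprc, and the immune genes at large, were chosen after their values were seen. Alternatives are in the part on processing.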

Additional observations from a re-analysis of the deposited data

Results flagged for a closer look

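Barcodes removed before any comparison also carried antigen RNA. Of 946 removed barcodes in the C435A library, 3 had at least 20 UMIs of Pmel, Mlana, Dct and Tyrp1, and of 957 in the WT library 33 did. They were 5.17% and 25.2% of all barcodes that met the rule. Of these, 2 and 26 had been removed as predicted doublets and 1 and 7 by the filters on genes, UMIs or mitochondrial share. They held 246 and 13531 antigen UMIs, or 7565 and 14475 CPM, and Ptprc UMIs were seen in 2 of 3 and 15 of 33. With the predicted doublets kept, the share of melanoma cells differed by -0.685 points in place of -0.482.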

How the results depend on the processing

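With 1 library per group, no p-value was computed and no call could be lost. No paired analysis was possible because each group has 1 library and no test. The summed 8 antigens in melanoma cells had a log2 ratio of -0.07, and of -0.10 at a limit of 100 UMIs, -0.029 with no doublets removed, -0.0943 in the melanoma-like cluster found at resolution 2, -0.0941 with TMM scaling and -0.10 with median-ratio scaling. It changed sign to 0.0034 without the 5 deepest cells of each library, 0.12 without cells with at least 2 Ptprc UMIs and 0.10 with cells weighted alike. The 4 antigens outside the rule were at -0.11 with no doublets removed and -0.071 without the 5 deepest cells. They turned to 0.027 without cells with at least 2 Ptprc UMIs. Pmel also changed sign, to 0.022 without the 5 deepest cells, 0.20 without cells with at least 2 Ptprc UMIs and 0.14 with cells weighted alike. The cause was not tested. Tyrp1, Tyr and Sox10 stayed below 0, but without cells with at least 2 Ptprc UMIs their intervals included 0. The interferon list median turned to -0.066 with members of at least 5 UMIs and was 0.20 at 100, and that of the immune genes was 0.69 at 5 UMIs and 0.068 at 100. Without cells with at least 2 Ptprc UMIs, Oca2 was at 0.60. This was the only antigen value past 1.5-fold in melanoma cells among the alternatives run. The Tyr share of cells turned to 0.315 points unthinned.

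In the other barcodes the ratio was -1.44 over barcodes under 5 UMIs, -1.27 under 2 UMIs and -1.37 per cell. All 100 alternatives by class were below 0, from -2.05 to -0.32, though a few had intervals that held 0. In alveolar macrophage-like cells it was -0.99 under 5 UMIs, -0.61 under 2 UMIs, -0.92 at resolution 0.5 and -0.90 at resolution 2, against -1.33 at resolution 1. In macrophage-like cells it was -0.32 under 2 UMIs and -1.36 at resolution 0.5. Counts of genes past 1.5-fold depended on the minimum: 2411 higher and 1537 lower with no filter, 399 and 438 at 50 UMIs, and 87 and 123 at 200 UMIs. Median-ratio scaling moved every ratio by 0.18 in T cell-like and -0.30 in plasma cell-like cells. The values in melanoma cells rest on 55 and 98 cells, so spread between tumours is not covered. The limit to cells of at least 5000 UMIs and the removal of the unnamed cluster were added after seeing the data.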
